A study of Mus musculus with 4 samples.

Results

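Glycolysis breaks glucose down to pyruvate, and cells short of oxygen raise it through the hypoxia-inducible factor (HIF). The 37 genes described here are a curated set for these 2 processes, listed by name. No threshold on a measured value was used, but earlier results of these data were known when they were chosen. They are 37 of the 24340 genes in the expression table. They comprise 3 sugar and lactate transporters, 16 glycolytic enzymes, 3 regulators of glycolytic flux, 12 genes known as hypoxia or HIF targets, and 3 HIF subunits. All 37 were matched by symbol, and 31 had a mean of at least 1 FPKM (sequenced fragments scaled to transcript length and to the depth of the library) over the 4 libraries. The other 6 (Eno1, Eno2, Egln3, Ankrd37, Adm and Epas1) were below that level and are left out of the counts and medians.

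The study isolated Lin-cKit+ bone marrow cells, that is, marrow cells with Kit and without lineage surface markers, a gate that holds stem and progenitor cells, from C57BL/6 mice. The cells all carried JAK2V617F, an active form of the kinase JAK2 found in myeloproliferative disease. They were either Tet2+/+ (wild type) or Tet2-/- (knockout), Tet2 being an enzyme that oxidises methylated cytosine in DNA. After extraction they were left as controls or exposed to ruxolitinib, an inhibitor of JAK1 and JAK2. The 4 groups were therefore wild type control, wild type with ruxolitinib, knockout control and knockout with ruxolitinib, each with 1 RNA-seq library of ribosome-depleted total RNA. JAK2V617F was shared by every group, so no group shows Tet2 loss or the drug without it. The series' design text names a conditional inactivation of Tet2 in blood cells and a cross to Flt3ITD, while the labels of these libraries name JAK2V617F. The promoter that drives the recombinase, the dose and duration of ruxolitinib, the number of animals behind a library and whether the 2 libraries of a genotype share animals were not given in the sources used here.

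In glycolysis, glucose enters through GLUT transporters, is phosphorylated by hexokinase, committed by phosphofructokinase, split by aldolase and carried through to pyruvate, which lactate dehydrogenase can reduce to lactate for export. HIF is a pair of an oxygen-regulated alpha subunit and ARNT. Prolyl hydroxylases mark the alpha subunit for destruction when oxygen is present, and the stable pair binds ACGTG or GCGTG in DNA and raises many glycolytic genes. In blood cells JAK2 signals mainly through STAT5, which binds a different DNA motif, and blood stem cells are known for a strong use of glycolysis.

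The promoters of 4 of these genes are shown, and they were not picked to represent the members. Bnip3, Slc16a3 and Pgam1 were lower with ruxolitinib by 1.5-fold in both genotypes. Ldha, among the most abundant members, is shown because it had the most ACGTG cores of the members. Each line gives the 250 bases before the most upstream start that the table of RefSeq promoters (GRCm38.p6) lists for the gene, in the direction of transcription. The RefSeq gene models of Slc16a3 and Ldha begin further upstream than that start, so those windows lie within the gene's span. Capitals mark the HIF cores ACGTG and GCGTG on either strand (CACGT and CACGC on the reverse strand), and a run of CACGTG holds ACGTG on both strands.
Bnip3, chr7:138909507-138909756, minus strand: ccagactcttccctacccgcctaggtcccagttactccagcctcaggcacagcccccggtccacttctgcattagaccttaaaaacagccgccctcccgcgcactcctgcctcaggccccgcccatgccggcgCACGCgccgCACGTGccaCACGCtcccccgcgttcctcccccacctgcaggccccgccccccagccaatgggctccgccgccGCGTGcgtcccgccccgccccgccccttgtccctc
Slc16a3, chr11:120948817-120949066, plus strand: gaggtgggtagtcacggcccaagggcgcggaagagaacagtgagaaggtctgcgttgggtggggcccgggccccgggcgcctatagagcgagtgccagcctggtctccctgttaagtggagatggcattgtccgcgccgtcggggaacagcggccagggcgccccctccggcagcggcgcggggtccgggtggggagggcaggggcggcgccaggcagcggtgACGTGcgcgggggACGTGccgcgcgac
Pgam1, chr19:41911621-41911870, plus strand: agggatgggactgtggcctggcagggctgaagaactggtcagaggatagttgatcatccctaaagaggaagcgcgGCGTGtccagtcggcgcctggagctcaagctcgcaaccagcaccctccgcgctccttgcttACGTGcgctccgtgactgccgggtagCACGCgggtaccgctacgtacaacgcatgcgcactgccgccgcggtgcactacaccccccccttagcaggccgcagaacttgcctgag
Ldha, chr7:46845554-46845803, plus strand: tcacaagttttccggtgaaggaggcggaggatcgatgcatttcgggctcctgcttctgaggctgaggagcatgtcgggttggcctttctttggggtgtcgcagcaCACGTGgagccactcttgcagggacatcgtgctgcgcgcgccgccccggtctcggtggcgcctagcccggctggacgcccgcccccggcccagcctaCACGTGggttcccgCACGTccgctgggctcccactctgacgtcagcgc

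Over the 33 members with a RefSeq promoter in the table used, 17 (51.5%) held ACGTG in that window, against 22.8% of 7963 promoters of measured genes and 16.5% of all 27025 promoters. GCGTG was in 18 (54.5%), against 47.6% of the promoters of measured genes. At least 1 of the cores was in 26 (78.8%), against 59.0%. The palindrome TTCNNNGAA, the form bound by STAT5, was in 0 of the 33, against 6.00% of the promoters of measured genes. The share with ACGTG was thus higher among the members, as a description of these letters in this window, and a count of 0 in 33 lies near the share for the STAT motif. Some members were chosen as known HIF targets, so the ACGTG share is not independent of that choice. The 33 also include members below 1 FPKM, unlike the promoters of measured genes. Vegfa, a textbook HIF target, and Tpi1 were among the members with neither core in the window. Both were lower with ruxolitinib in wild type by 1.5-fold (-0.99 and -0.68). Slc2a3, Bnip3l, Ndrg1 and Epas1 are named only.

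The spacing of low values in the deposited table implied 4.51e+07 to 5.51e+07 fragments per library, as far as the values keep it after any scaling by the authors. Of 4 known STAT5 or JAK response genes, 3 were lower with drug by 1.5-fold in each genotype, among them Cish, which measured 174 FPKM in control and 45.1 in treated wild type cells, and 114 and 40.7 in knockout cells. The other, Myc, differed by -0.17 and -0.19. Of 10 mast cell markers, 9 were measured, and they summed to 26415 and 30105 FPKM in the wild type control and drug libraries and to 18378 and 22169 in the knockout control and drug libraries. Kit was at 421 to 647 FPKM and Cd34 at 307 to 465, while Flt3 was listed at 0 and B, T and NK cell markers were all under 1 FPKM. Cpa3, the mast cell marker not measured, was listed at 0 in every library. Of 9 neutrophil and granulocyte progenitor markers found, 7 were under 1 FPKM in every library, and Ctsg was at 27.1 to 108 FPKM. Itga2b, from the megakaryocyte markers, was at 442 to 743 FPKM. The cells thus carried Kit, as gated, together with most of the mast cell genes listed. Cma1 and Fcer1a make up most of the sum, and the markers did not all go one way: 8 of 9 were lower in the knockout without drug and 5 of 9 with drug, and Tpsab1 was higher in both, by 1.13 and 1.99. Their part in the results below was not tested. In bulk RNA, fewer cells of a type and less RNA per cell cannot be told apart. The wild type libraries came from male and the knockout libraries from female mice by Ddx3y (21.3 and 18.7 against 0.0288 and 0.00886 FPKM) and Xist (0.0241 and 0.0309 against 53.2 and 62.2 FPKM), so sex and genotype cannot be told apart, and Pgk1 is the 1 X-linked member.

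Each difference below is between 2 libraries, on the log2(FPKM + 1) scale, and has no replicate check. A member was counted as higher or lower when the difference reached 1.5-fold on that scale. The authors' deposited table gives q-values from Cuffdiff; these compare libraries, not genotypes or treatments, and their smallest value is 0.000746.

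With ruxolitinib, the measured members were mostly lower, and in wild type cells by more. In wild type, 9 of 31 members were lower by 1.5-fold and 0 were higher, where 2.64% of all 10471 measured genes were lower and 1.05% higher. In the knockout, 3 were lower and 1 was higher, where 2.2% of all measured genes were lower and 1.67% higher. Among the 20 measured transport, enzyme and regulator genes, 17 had a negative difference in wild type (median -0.40) and 17 in the knockout (median -0.25), while the median of all measured genes was 0.01 and 0.00. The medians of the 9 measured hypoxia targets did not shift in this way, at -0.04 and -0.05. Even so, 2 of the 9 were lower by 1.5-fold in wild type and 0 higher. In the knockout 1 was lower and 1 higher. In the authors' deposited table, 13 of 34 tested members were lower at q under 0.05 in wild type and 0 were higher (4.13% and 2.39% of all tested genes), and 7 were lower and 2 higher in the knockout (4.73% and 4.85%).

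**Figure D1:**
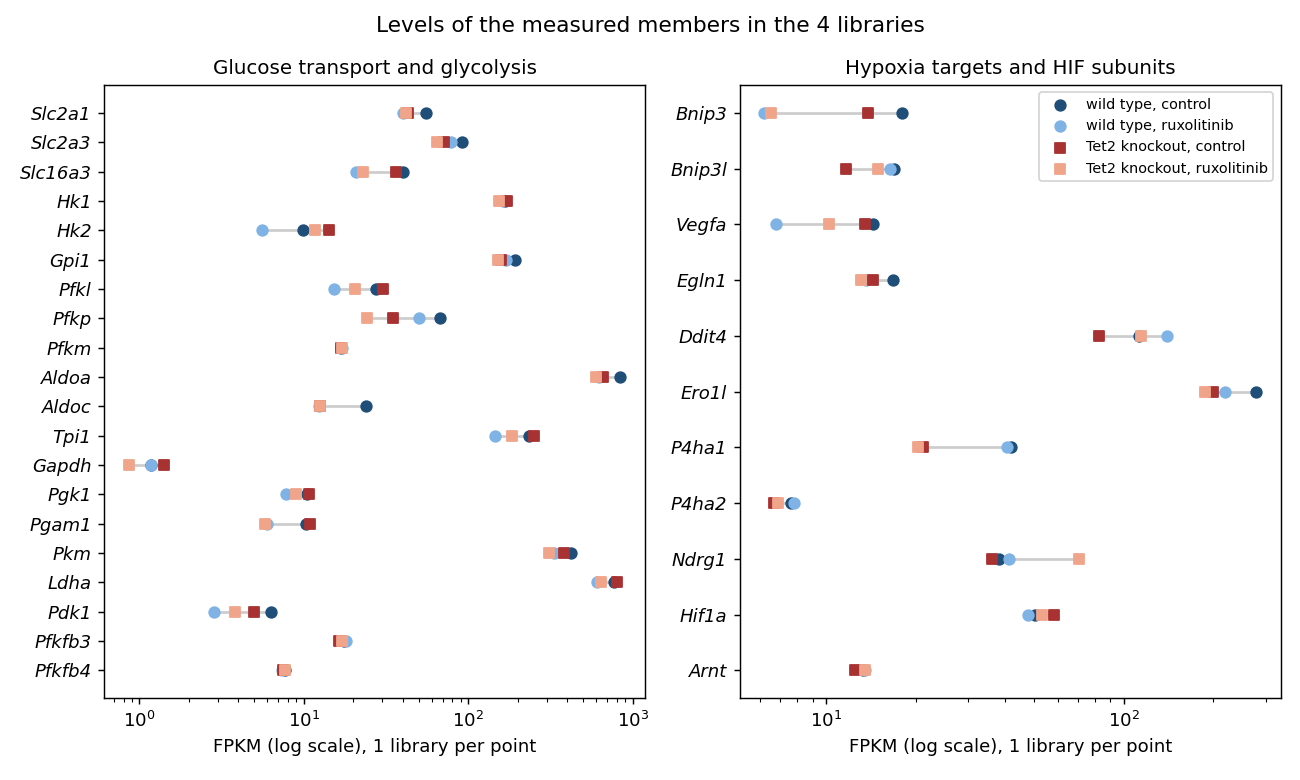
Levels in FPKM (log axis) of the 31 measured members, 1 point per library, in blue for wild type and red for Tet2 knockout, dark for control and light for ruxolitinib. The spread runs from Gapdh at about 1 FPKM to Aldoa at 842 FPKM, and Bnip3, Slc16a3 and Pgam1 show both drug libraries to the left of both controls.

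Transport was divided. Slc16a3, on chromosome 11 from 120948484 to 120959000, encodes MCT4, which exports lactate and is induced by hypoxia. Its levels were 39.9, 20.9, 36.3 and 22.9 FPKM in the order wild type control, wild type with drug, knockout control and knockout with drug, an order used for every set of 4 values below. Both drug libraries were below both controls, with differences of -0.90 in wild type and -0.64 in the knockout. Such a separation was seen in 15 of the 31 measured members, and in 18.4% of all measured genes, while 4 members had both drug libraries above both controls, against 18% of all measured genes. The glucose transporter gene Slc2a1 (GLUT1) was at 55.2, 39.8, 43.2 and 41.7 FPKM, so that the wild type control alone stood high. Its drug difference was -0.46 in wild type and -0.05 in the knockout. Slc2a3 (GLUT3) was at 91.3, 78.4, 71.7 and 64.7 FPKM and differed by -0.22 and -0.15. It was the more abundant of the pair in each library, with 60.8% to 66.3% of their summed FPKM.

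Among the early enzymes, hexokinase and phosphofructokinase split by isozyme. Hk1, the widespread hexokinase, was at 167, 164, 172 and 155 FPKM and differed by at most 0.15 in either direction. Hk2, the inducible form, on chromosome 6 from 82725025 to 82774454, was at 9.87, 5.58, 14.2 and 11.7 FPKM. The wild type drug library was lowest, more than 1.5-fold below each other library, and the drug difference was -0.72 in wild type and -0.26 in the knockout. Hk2 made up 5.57% and 3.29% of the summed hexokinase FPKM in wild type and 7.64% and 7.02% in the knockout.

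The 3 phosphofructokinase genes encode subunits of the enzyme that commits sugar to glycolysis. Pfkl, the liver type, on chromosome 10 from 77986947 to 78009807, was at 27.6, 15.2, 30.1 and 20.5 FPKM. Both drug libraries were below both controls, with differences of -0.82 in wild type, past the rule, and -0.53 in the knockout, just short of it. Pfkp, the platelet type, on chromosome 13 from 6579874 to 6649060, was at 67.8, 50.02, 35.0 and 24.2 FPKM with drug differences of -0.43 and -0.52, short of the rule. Pfkm, the muscle type, stayed between 16.8 and 17.2 FPKM in the 4 libraries. The locus that the deposited table gives for Pfkp and Pfkm is longer than the RefSeq gene, so those values may hold reads of a neighbouring gene.

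Of the aldolases, isomerases and phosphoglycerate kinase, Aldoc and Tpi1 were lower by the rule with drug in wild type, and none was in the knockout. Aldoa, the main aldolase, was at 842, 627, 656 and 597 FPKM, with differences of -0.43 and -0.13. Aldoc, the brain type, on chromosome 11 from 78323073 to 78327781, was at 24.0, 12.4, 12.6 and 12.5 FPKM. The wild type control was the only library that stood apart, at more than 1.5-fold above each other, and the drug difference was -0.90 in wild type and -0.00 in the knockout. Tpi1, triose phosphate isomerase, on chromosome 6 from 124810586 to 124814158, was at 234, 145, 253 and 185 FPKM, with differences of -0.68 and -0.45. Gpi1, the isomerase after hexokinase, was at 192, 171, 159 and 152 FPKM and did not reach the rule. Pgk1, phosphoglycerate kinase, was at 10.5, 7.84, 10.8 and 8.96 FPKM, with differences of -0.38 and -0.25.

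Pgam1, phosphoglycerate mutase, on chromosome 19 from 41911871 to 41918665, was at 10.3, 6.00, 10.9 and 5.81 FPKM. Both drug libraries were below both controls, with differences of -0.69 and -0.80, and the authors' deposited table gives q = 0.000746 for each. The enzymes of the last steps were among the most abundant members and stayed short of the rule. Pkm, pyruvate kinase, was at 422, 333, 383 and 309 FPKM. Ldha, lactate dehydrogenase A, was at 772, 608, 802 and 646 FPKM. Each had a drug difference of -0.34 in wild type and -0.31 in the knockout, with q = 0.0757 and 0.108 for Pkm and q = 0.0722 and 0.125 for Ldha in the authors' deposited table.

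The levels of 10 members are uncertain because at least 10% of their longest coding transcript lies in near-identical copies. Copies were sought among annotated transcripts of other genes (95% identity or more over at least 100 bases), not in the whole genome. The 10 members are Gapdh, Eno1, Bnip3, Pgk1, Pkm, Ldha, Gpi1, Pgam1, Bnip3l and Tpi1. Gapdh, usually among the most abundant mRNAs of a cell, has 81 such copies, 77 of them pseudogenes, that cover 88.0% of its transcript, and it was at 1.17, 1.18, 1.41 and 0.862 FPKM. Eno1, the main enolase, has 85.6% of its transcript in copies and was listed at 0 in all 4 libraries. How the authors treated reads that map to several places was not given in the sources used here, and its part in these levels was not tested. Eno2, the neuronal enolase, was at 0.460, 0.15, 1.14 and 1.02 FPKM, below the level set for a measured gene. The authors' deposited table gives q = 0.0233 for its drug difference in wild type and q = 0.000746 for each genotype difference.

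Of the flux regulators, Pdk1 stood out. Its product, pyruvate dehydrogenase kinase, keeps pyruvate out of the mitochondrial cycle and is a HIF target. It was at 6.35, 2.84, 5.01 and 3.82 FPKM, with drug differences of -0.94 in wild type and -0.32 in the knockout. The authors' deposited table gives q = 0.0837 for wild type and q = 0.653 for the knockout, and its locus there also runs past the RefSeq gene. Pfkfb3 and Pfkfb4, which make and break the activator of phosphofructokinase, were flat at 16.3 to 18.2 FPKM and 7.32 to 7.68 FPKM.

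**Figure D2:**
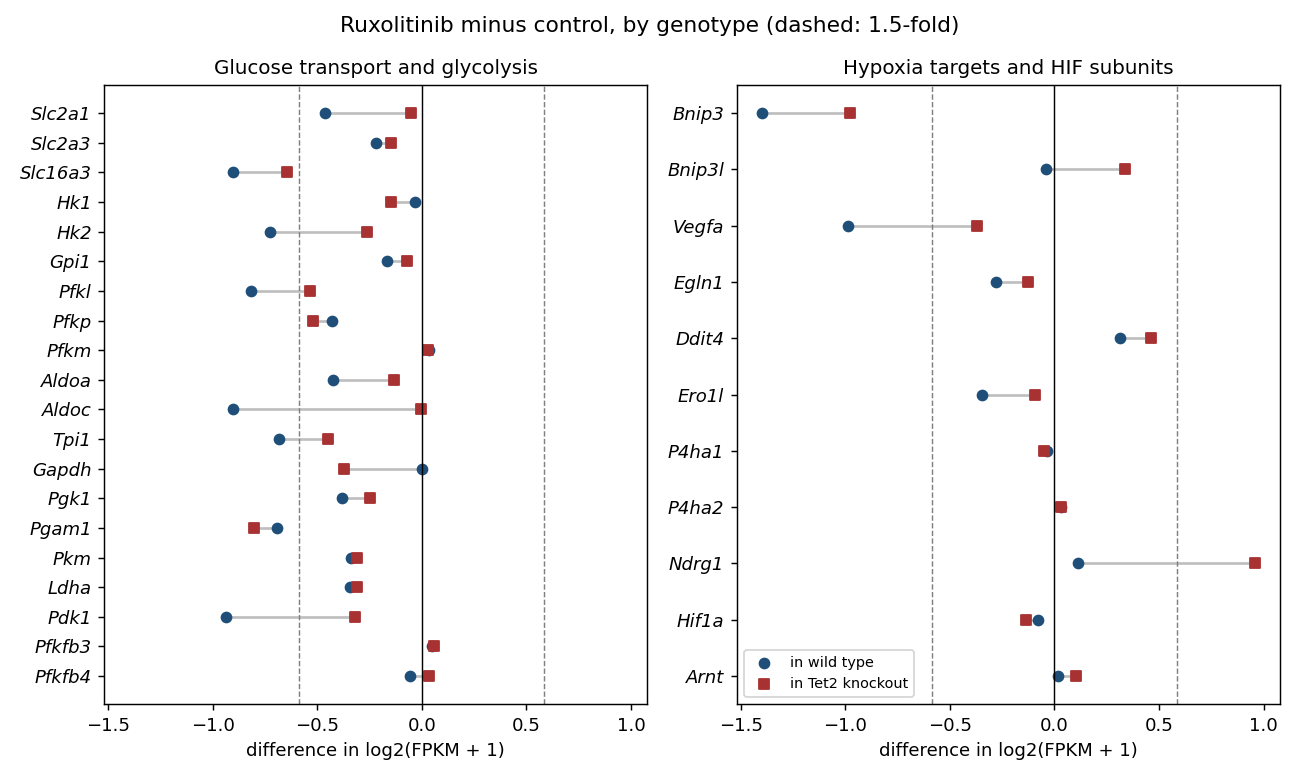
Difference in log2(FPKM + 1) between the ruxolitinib and control libraries for each measured member, as a blue circle in wild type and a red square in the Tet2 knockout, with dashed lines at 1.5-fold. Bnip3, Slc16a3 and Pgam1 pass the left line in both genotypes, and Ndrg1 passes the right line in the knockout.

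The hypoxia targets did not move as a block with the drug. Bnip3, which encodes a mitochondrial protein that promotes mitophagy, lies on chromosome 7 from 138890836 to 138909506. It was at 18.0, 6.20, 13.9 and 6.54 FPKM, with both drug libraries far below both controls. Its difference of -1.40 in wild type was the largest of any measured member in any of the 4 comparisons, and it was -0.98 in the knockout, with q = 0.000746 for each in the authors' deposited table. Copies cover 94.2% of its transcript, and Gm45507 on the opposite strand shares 22.3% of its exon bases. Its relative Bnip3l (NIX) was at 16.9, 16.4, 11.6 and 14.9 FPKM, so that Bnip3 made up 51.6% and 54.4% of the pair's FPKM in the controls and 27.4% and 30.5% with drug.

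Vegfa, the gene of the angiogenic growth factor, on chromosome 17 from 46016993 to 46032377, was at 14.4, 6.76, 13.5 and 10.2 FPKM. Both drug libraries were below both controls, with wild type and knockout differences of -0.99 and -0.37, and q = 0.000746 and 0.0440 in the authors' deposited table. Ndrg1, a stress and differentiation gene on chromosome 15 from 66929318 to 66969641, was at 38.0, 41.3, 36.0 and 71.0 FPKM. The knockout drug library alone stood high, with a drug difference of 0.96 there and 0.12 in wild type. Ddit4 (REDD1), an inhibitor of mTORC1 signalling, was at 112, 139.5, 82.6 and 114 FPKM, higher with drug in both genotypes by 0.31 and 0.46. The targets thus included genes that were lower with drug and genes that were higher.

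None of the other measured targets reached 1.5-fold with drug. P4ha1 and P4ha2, whose products hydroxylate collagen, differed by at most 0.05 in either direction. Ero1l (Ero1a in RefSeq), an oxidase of the endoplasmic reticulum, was at 278, 218, 200.2 and 187 FPKM. Egln1 (PHD2), the main oxygen sensor that marks HIF, was at 16.7, 13.6, 14.4 and 13.1 FPKM. The induced sensor gene Egln3 was at 0.865, 0.227, 0.427 and 0.345 FPKM and Ankrd37 at 0.961, 0.270, 0.930 and 0.670 FPKM, both below the level set for a measured gene. With drug in wild type, Egln3 differed by -0.60 and Ankrd37 by -0.63, past 1.5-fold, and the authors' deposited table gives q = 0.00197 and q = 0.822. Adm, the adrenomedullin gene, was at 0.0188, 0.0173, 0 and 0 FPKM. The subunit genes were steady: Hif1a, on chromosome 12 from 73901324 to 73947554, was at 50.2, 47.5, 58.4 and 53.0 FPKM and Arnt at 13.3, 13.4, 12.5 and 13.5 FPKM. Epas1, the gene of the HIF-2 alpha subunit, was at 0.0165 to 0.0304 FPKM, so Hif1a was the HIF alpha gene present at more than trace level among the 2 listed.

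Between genotypes, few members differed, and the clearest were Pfkp and P4ha1. Without drug, 3 of 31 members were lower in the knockout by 1.5-fold (Pfkp, Aldoc and P4ha1) and 0 were higher, where 5.06% of all measured genes were lower and 3.88% higher. With drug, 2 were lower (Pfkp and P4ha1) and 2 higher (Hk2 and Ndrg1), where 3.34% of all measured genes were lower and 2.97% higher. Pfkp had differences of -0.93 without drug and -1.02 with it, and P4ha1, on chromosome 10 from 59323197 to 59373304, had -0.95 and -0.96. P4ha1 was at 41.6 and 40.6 FPKM in wild type against 21.1 and 20.4 in the knockout. For both genes the wild type and knockout libraries did not overlap, as for 8 of the 31 members with both knockout libraries lower (28.2% of all measured genes) and 2 with both higher (also 28.2%). The authors' deposited table gives q = 0.000746 in each comparison. In the authors' deposited table, 7 of 34 tested members were lower in the knockout at q under 0.05 without drug and 2 were higher (9.68% and 9.37% of all tested genes), and with drug 2 of 33 were lower and 5 higher (6.21% and 7.39%). The mast cell marker sum was also lower in the knockout libraries.

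Among the enzyme families, the make-up of 2 differed most with genotype, in percentage points of share. Pfkp made up 60.4% and 60.7% of the summed phosphofructokinase FPKM in wild type and 42.8% and 39.1% in the knockout, while Pfkl made up 24.6% and 18.4% against 36.7% and 33.2%. The sum itself was 112, 82.4, 82.0 and 61.8 FPKM. P4ha1 made up 84.6% and 83.9% of its pair in wild type and 75.9% and 74.8% in the knockout. The Hk2 share of hexokinase also separated by genotype, at 5.57% and 3.29% against 7.64% and 7.02%. These shares do not depend on how the libraries are scaled.

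**Figure D3:**
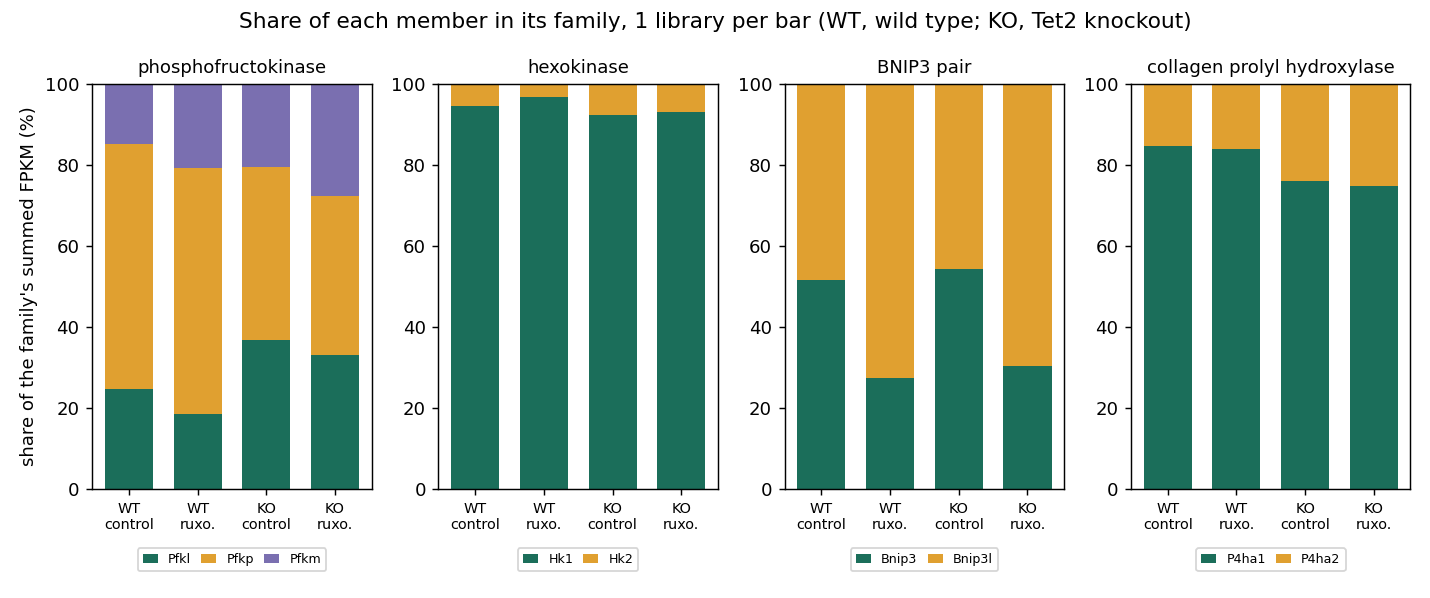
Share of each gene in its family's summed FPKM, in percent, with 1 bar per library. The Pfkp share is near 60% in both wild type libraries and near 40% in both knockout libraries (60.4%, 60.7%, 42.8% and 39.1%), and the Bnip3 share is lower in the drug library of each genotype.

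The measured hypoxia targets of this set leaned lower in the knockout without drug. All 9 had a negative difference there, with a median of -0.35 against 0.00 for all measured genes, although 1 reached 1.5-fold. When the values were rescaled to TPM, which gives each library the same total, 7 of 9 were negative, with Vegfa at 0.06 and Ndrg1 at 0.07, and the median was -0.22. With drug, 6 of 9 were negative and the median was -0.13. The 28 measured genes of a further list of HIF targets and regulators, described below, did not share this lean. Without drug, 12 of them were positive and 16 negative, with a median of -0.03, and 4 were higher and 4 lower by 1.5-fold. Rescaled to TPM, 17 were positive and 11 negative, with a median of 0.12. Bnip3l at -0.51, Ero1l at -0.47 and Ddit4 at -0.44 came next after P4ha1 without drug. The 20 measured transport, enzyme and regulator genes had medians of -0.06 without drug and 0.01 with drug. Hk2 was higher in the knockout by 0.49 without drug and by 0.95 with drug, and Hif1a by 0.21 and 0.16.

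**Figure D4:**
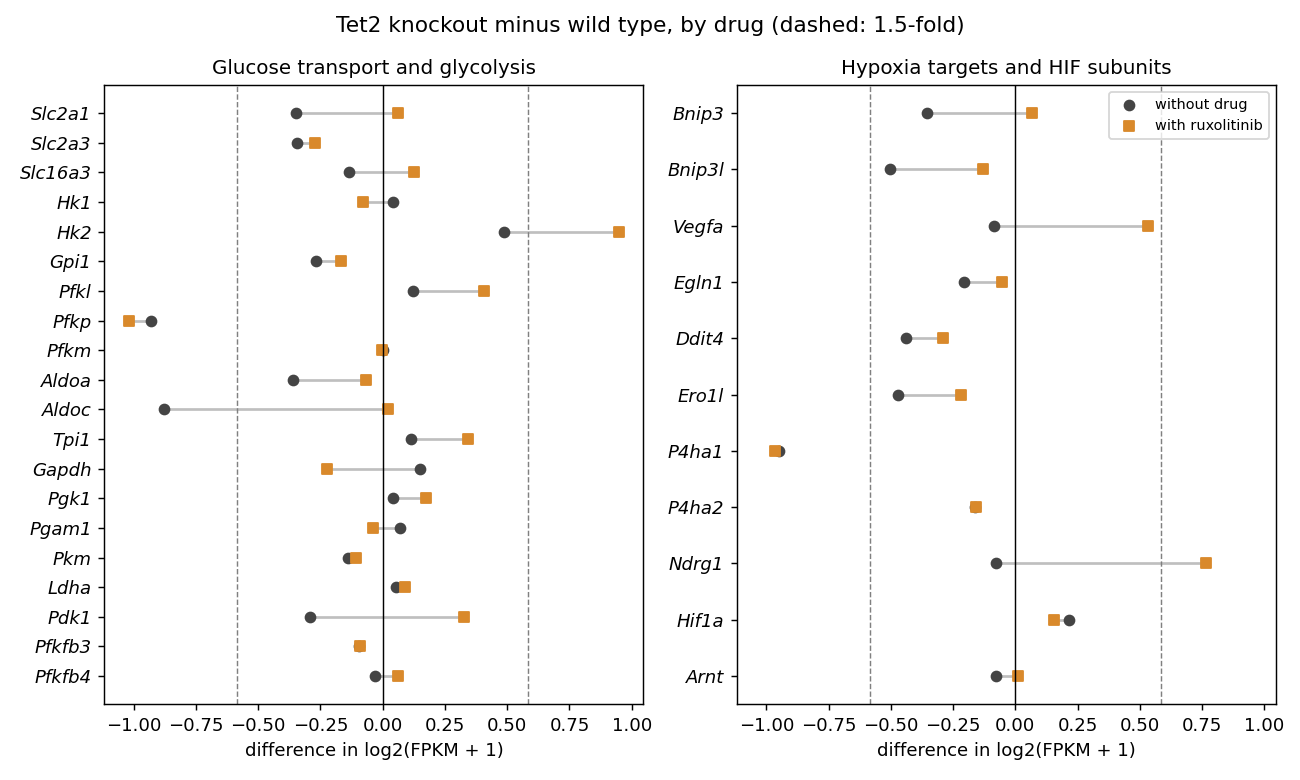
Difference in log2(FPKM + 1) between the Tet2 knockout and wild type libraries for each measured member, as a grey circle without drug and an orange square with ruxolitinib, with dashed lines at 1.5-fold. Pfkp and P4ha1 lie past the left line under both conditions, and all 9 hypoxia targets lie left of 0 without drug (7 of 9 after rescaling to TPM).

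The difference between the 2 drug responses was positive for most members. In 4 of 31 members the drug difference was more positive in the knockout than in wild type by 1.5-fold or more (Aldoc 0.90, Ndrg1 0.85, Pdk1 0.62 and Vegfa 0.62), and 0 were more negative, where 1.82% of all measured genes were more positive and 1.14% more negative. Aldoc, Pdk1 and Vegfa were lower with drug in wild type by more than in the knockout, and Ndrg1 was higher with drug in the knockout. Pdk1 and Vegfa lay just past the rule, and Hk2, at 0.46, did not reach it. The median was 0.09 over the 20 transport, enzyme and regulator genes and 0.25 over the 9 hypoxia targets, against -0.01 over all measured genes. The wild type control was the highest library for 15 of the 31 members (48.4%), where it was the highest for 20.2% of all measured genes. That library enters both the wild type drug difference and the knockout difference without drug, so a high value there lowers both. With 1 library a group, the difference of the responses could not be tested.

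Related lists of genes outside the set gave the surroundings. Of 25 other glycolysis and gluconeogenesis genes, 13 were measured, and their drug medians were 0.01 in wild type and -0.04 in the knockout, with 0 reaching 1.5-fold either way. Of 40 other HIF targets and regulators, 28 were measured, with 7 lower in wild type (median -0.24) and 5 in the knockout (median -0.05). Among these, Car12, a carbonic anhydrase gene, was at 10.1, 2.45, 19.0 and 5.38 FPKM, and Bhlhe40, a transcriptional repressor gene, was at 167, 76.6, 112 and 73.8 FPKM. Both were lower with drug in both genotypes. Of 18 pyruvate and lactate genes, 16 were measured, and Pcx, pyruvate carboxylase, was at 15.0, 4.88, 19.9 and 7.63 FPKM, again lower with drug in both genotypes. Fbp1, the gluconeogenic enzyme that reverses the phosphofructokinase step, was at 0.193, 0.179, 4.53 and 4.34 FPKM, higher in both knockout libraries.

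**Figure D5:**
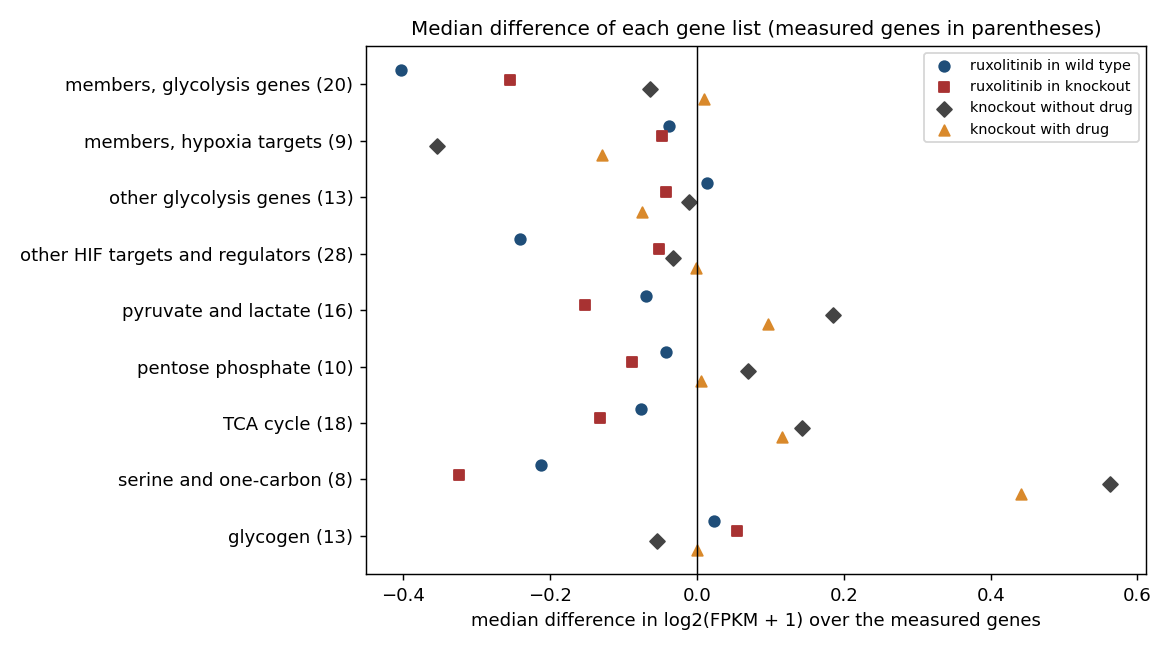
Median difference in log2(FPKM + 1) over the measured genes of each list, with the number measured in parentheses, for the 4 comparisons. The glycolysis members have the lowest drug median in wild type (-0.40) of the lists drawn, and the hypoxia targets the lowest median for the knockout without drug (-0.35).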

How the data were processed

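RNA from Lin-cKit+ marrow cells was sequenced in 4 libraries, 1 per group. Per the submitters' processing notes, the authors aligned reads with STAR to mm10 and ran Cuffdiff; their versions, the strand setting and the treatment of multi-mapped reads were not given in the sources used here. A deposited table holds FPKM per gene and library, normalized by the authors. The authors' deposited comparison table gives a log2 fold change, a test score, and a p-value and q-value for each gene and pair of libraries.

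Here log2(FPKM + 1) was compared between libraries. A gene counted as measured when its mean reached 1 FPKM, and as higher or lower when the difference reached 1.5-fold (0.58 on the log2 scale). With 1 library per group there was no test across samples, and precision beyond counting is unknown. The fragment-step estimate of depth was tested on simulated data. Near-identical copies were found among annotated transcripts with blastn 2.17.0, and tables were handled in Python 3.11.15 with pandas 2.3.3. Coordinates and promoters are from RefSeq (GRCm38.p6, the build of mm10). Members at 1.5-fold in any comparison are named with values in every library, and the other members are given by role, many with their values too. Genes of the other lists were named after their values were seen. The members and lists were chosen with earlier results of these data known. Alternatives were another pseudocount, filter, scaling or fold rule, and leaving out members with copies.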

Additional observations from a re-analysis of the deposited data

Results flagged for a closer look

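For 3 members the difference between genotypes had opposite signs without and with ruxolitinib, beyond 0.1 on the log2(FPKM + 1) scale. For Slc16a3 the difference, knockout minus wild type, was -0.13 without drug and 0.13 with it. For Gapdh it was 0.15 without drug and -0.23 with it, at about 1 FPKM and with most of its transcript in near-identical copies. For Pdk1 it was -0.29 without drug and 0.33 with it. With 1 library per group, whether the genotype difference itself depended on the drug was not tested.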

How the results depend on the processing

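The median differences of the member groups kept their value within 0.1 (log2) in 72 of 80 recomputations. In 0 did a median of at least 0.1 in size change sign. Smaller medians could: the glycolysis median for the knockout without drug was -0.064 as deposited and 0.078 under TPM. Rescaling to TPM moved the median of all measured genes by 0.15 in the knockout comparison without drug and by 0.13 with drug. Under TPM the glycolysis median became 0.078 without drug and 0.14 with drug, the hypoxia target median -0.22 and -0.0038, and Slc16a3 without drug 0.01. With no filter on low values, the hypoxia target median for the drug in wild type was -0.16 over 12 genes. Leaving out members with near-identical copies, chosen after seeing the data, gave a glycolysis median of -0.15 for the drug in the knockout and 0.26 for the difference of the responses (13 genes), and a hypoxia target median of -0.21 for the knockout without drug (7 genes). Member counts followed the fold rule: with the looser of 2 other rules, 16 were lower with drug in wild type, 8 lower and 3 higher in the knockout, 10 lower and 1 higher in the knockout without drug, 6 higher with drug, and 8 and 1 more positive and more negative between responses. With 2-fold, 1 was lower with drug in wild type and 1 in the knockout with drug, and 0 in the other counts. A pseudocount of 5 FPKM left 1 lower with drug in the knockout and 2 more positive between responses, and without copies 1 of 22 was lower with drug in the knockout. A pseudocount of 0.1 FPKM added 1 member more negative between responses, and TPM added 1 higher in the knockout without drug. The shares of all measured genes were not computed under these other settings. These counts therefore show only how the calls depend on the settings and are not a result about the members. No paired analysis was possible because each group has 1 library and the labels give no replicate numbers. Eno2, Egln3 and Ankrd37 were at about 1 FPKM or less. By the depth estimate, Eno2 rests on about 18 to 164 fragments a library, Egln3 on 26 to 96 and Ankrd37 on 9 to 37. Gapdh, counted as measured, rests on about 57 to 95.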

Other observations

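Among genes of serine synthesis and folate metabolism, the former of which branches from glycolysis, 4 of 8 measured were higher by 1.5-fold in the knockout without drug and 1 of 8 with drug, against 3.88% and 2.97% of all measured genes. Of 9 genes, 8 were measured, and all 8 had a positive difference without drug (median 0.56) and with drug (median 0.44) under each scaling tried. The 4 without drug were Shmt1, Mthfd1, Phgdh and Psat1, and Shmt1 was the 1 with drug. Phgdh, the first enzyme of serine synthesis, had levels of 5.92, 5.14, 10.1 and 7.96 FPKM (order as above), and Psat1, the next enzyme, was at 95.04, 79.3, 145 and 108 FPKM. With drug, all 8 were lower in each genotype as deposited, with wild type and knockout medians of -0.21 and -0.32, and 0 reached 1.5-fold; under TPM and the upper quartile scaling 7 of 8 were lower in wild type.

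The 18 genes of the mitochondrial citric acid cycle were all higher in the knockout without drug by a small amount (median 0.14), and 17 of 18 with drug (median 0.12), with 0 at 1.5-fold as deposited and 2 under TPM without drug. The lactate and pyruvate importer gene Slc16a1 (MCT1) was at 8.01, 5.81, 17.4 and 11.4 FPKM, higher in both knockout libraries. Its drug differences were -0.40 in wild type and -0.57 in the knockout, short of 1.5-fold. Slc16a3 (MCT4) was also lower with drug in both genotypes. Glycogen genes, 13 of 14 measured, had drug medians of 0.02 and 0.05 and none at 1.5-fold in any of the 4 comparisons.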
